A study of Mus musculus with 21 samples.

Results

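The ATP-binding cassette (ABC) genes named Abca to Abcg were followed across 21 arrays of mouse small-intestinal organoids. Members were all non-control array probes whose gene name begins with Abca to Abcg and a number, with the brightest probe in the sample channel standing for each gene. This gave 50 genes of the 34844 on the array. Of these, 36 stood well above background in the sample channel on at least 3 arrays and were tested among 21372 genes. On no array did 12 members pass that mark: Abca4, Abca6, Abca8a, Abca9, Abca12, Abca13, Abca15, Abca16, Abcb11 (the bile salt export pump of liver), Abcc12, Abcd2 and Abcg3. A further 2, Abca14 and Abcb5, passed it on 1 or 2 arrays and were not tested. Among the 36 tested members, 32 were above background on all 21 arrays. The exceptions were Abca1 (20 arrays), Abca17 (13), Abca8b (7) and Abcc9 (5).

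The organoids came from crypts of mice whose cells carry a human beta-catenin cDNA, myc-tagged and lacking its N-terminal 89 residues, behind a Tet-O promoter. The mice descend from KH2 embryonic stem cells, in which the Rosa26 promoter drives the M2-rtTA activator, so that all groups carry the transgene and were grown with doxycycline, which switches it on. Vehicle cultures kept doxycycline (7 arrays, letters A to G), as did those given compound 2 (3 arrays, A to C), compound 9 (3 arrays, A to C) or compound 6 (4 arrays, D to G), each at 2 µM for 24 h. In the withdrawal group (4 arrays, D to G) doxycycline was taken away for 24 h with vehicle. Per the labels, the compounds are related 3,4,5-trisubstituted pyridines that inhibit CDK8 and CDK19, kinases of the Mediator complex, and withdrawal lowers WNT signalling. The labels do not say whether arrays of a group are separate cultures or animals, so every p-value speaks only to the spread among these arrays.

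ABC proteins bind and hydrolyse ATP through a pair of conserved nucleotide-binding domains, and most use it to move lipids, conjugates, drugs, haem precursors or peptides across a membrane. In the gut epithelium, exporters on the apical side return drugs and sterols to the lumen, others on the basolateral side pass conjugates to the blood, and several family members work inside mitochondria, peroxisomes or lysosomes. Abcc8 and Abcc9 are channel regulators instead of pumps, and the ABCE and ABCF proteins have no membrane domain and act on ribosomes.

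Each value below is a log2 ratio of the sample over a common mouse reference RNA for 1 probe, and ratios of different genes are not set against each other. Probes are 60 bases long. The leading 30 bases, 5′ to 3′, are given with the mm9 positions in the scanner files for 7 members with main differences and for the P-glycoprotein pair Abcb1a and Abcb1b, closely related neighbours whose 60-base probes shared no run of bases longer than 7. The Abce1 position in the files covers only part of its probe.
Abcc9 (chr6:142536920-142536979, minus strand): attgcgttgcttgggctacctccgatgaca
Abcc8 (chr7:53359921-53359980, minus strand): agcgtgccgccccgcacctcacttgcttgc
Abcb6 (chr1:75168430-75168489, minus strand): gtccctgaagaatctaaacctcaggacacg
Abcb8 (chr5:23915694-23915753, plus strand): cctgggctaaatagtgagaccctctctcaa
Abcb10 (chr8:126476407-126476466, minus strand): cagatcagactggtgagaaagcattatgaa
Abcc3 (chr11:94204612-94204671, minus strand): aacagagaccctgtactggtgctgtctgag
Abce1 (chr8:82207341-82207378, minus strand): tcttctgttgagcaaccaagggacaaccta
Abcb1a (chr5:8748075-8748134, plus strand): actcagacatgggcacctgagttcagatcc
Abcb1b (chr5:8865925-8865984, plus strand): tccaggctggagcaaagcgctcatgagctg

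The RefSeq promoter windows of GRCm38.p6 (250 bases before to 50 after a start) held 38 of the 50 members and 26 of the 36 tested. They were searched on both strands for the antioxidant response core TGACNNNGC, the TCF/LEF core CTTTGA and the E-box CACGTG. The antioxidant core lay in 5 of the 26 tested members (Abca8b, Abcb1a, Abcc2, Abcc4, Abcc10) and in 12.4% of all 32851 windows. The TCF/LEF core was found in 5 (Abcb1a, Abcb6, Abcc5, Abcc10, Abcf1) against 16% of all windows, and the E-box in 4 (Abca1, Abca8b, Abcc4, Abcf1) against 7.15%. These member counts are by gene, where any window of the gene suffices, while the percentages are by window. Per window, the 45 windows of all 38 members held the antioxidant core in 7, the TCF/LEF core in 8 and the E-box in 6. A match is a description of these letters only. The windows of Abcb6, Abcc2 and Abcc4, exporters whose array values follow, are printed as examples that hold the antioxidant or TCF/LEF core. Those of Abcb1a, Abcc5 and Abcc10, which also hold such a core, are not printed. Capitals mark the matches. In Abcb6 (chr1:75180343-75180642, minus strand) the match is the TCF/LEF core on the opposite strand, 145 bases before the start. Abcc2 (chr19:43782058-43782357, plus strand) has the antioxidant core 98 bases before its start. The upstream of 2 windows of Abcc4 (chr14:118706170-118706469, minus strand) holds an E-box and the antioxidant core.
Abcb6: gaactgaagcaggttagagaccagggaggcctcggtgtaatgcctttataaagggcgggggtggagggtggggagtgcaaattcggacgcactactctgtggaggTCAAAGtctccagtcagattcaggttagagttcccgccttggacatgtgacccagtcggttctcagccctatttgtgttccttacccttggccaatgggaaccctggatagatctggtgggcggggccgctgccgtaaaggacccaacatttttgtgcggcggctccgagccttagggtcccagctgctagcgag
Abcc2: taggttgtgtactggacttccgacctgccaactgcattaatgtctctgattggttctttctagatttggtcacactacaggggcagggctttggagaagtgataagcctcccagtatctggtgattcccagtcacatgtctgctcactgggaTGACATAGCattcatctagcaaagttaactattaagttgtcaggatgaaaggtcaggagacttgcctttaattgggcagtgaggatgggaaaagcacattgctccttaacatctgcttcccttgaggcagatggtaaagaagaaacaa
Abcc4: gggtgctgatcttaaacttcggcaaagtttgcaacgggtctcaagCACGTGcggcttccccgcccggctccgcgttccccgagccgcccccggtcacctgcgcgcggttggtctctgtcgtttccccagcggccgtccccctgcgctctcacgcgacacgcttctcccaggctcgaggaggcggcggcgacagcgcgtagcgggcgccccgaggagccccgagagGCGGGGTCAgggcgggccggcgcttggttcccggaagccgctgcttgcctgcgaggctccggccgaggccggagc
Abcg5 and Abcg8, whose products form the sterol exporter of the apical membrane, start head to head on chromosome 17. The Abcg5 window (chr17:84682962-84683261, minus strand) is shown with the 209 bases that also belong to an Abcg8 window on the plus strand in capitals.
Abcg5: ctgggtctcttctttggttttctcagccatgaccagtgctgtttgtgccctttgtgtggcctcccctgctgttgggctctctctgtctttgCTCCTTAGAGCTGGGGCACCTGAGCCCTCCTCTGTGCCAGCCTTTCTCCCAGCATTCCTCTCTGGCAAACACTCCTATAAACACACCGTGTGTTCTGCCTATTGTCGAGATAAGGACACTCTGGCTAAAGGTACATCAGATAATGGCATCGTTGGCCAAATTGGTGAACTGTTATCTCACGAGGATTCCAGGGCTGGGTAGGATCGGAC

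On withdrawal 6 of the 36 tested members rose and 5 fell, and with compound 6 the counts were 9 and 5. Compound 2 raised 2 and lowered 3, and with compound 9 no member passed. Abcc9 is among the falls on withdrawal and with compound 6 although it passed the filter only through the vehicles. All counts are from limma at an adjusted p under 0.05. Over all 21372 genes the shares called were 20.6% on withdrawal (7.28% higher, 13.3% lower), 24.8% with compound 6 (11.4% higher, 13.4% lower), 5.31% with compound 2 (3.32% higher, 1.99% lower) and 0% with compound 9 (0% higher, 0% lower). The median change of the 36 members was 0.12 on withdrawal, 0.06 with compound 6, 0.03 with compound 2 and 0.02 with compound 9, beside -0.01, -0.04, 0.00 and -0.01 over all genes. With the letter fitted as a block, since the letters pair the samples, 18 members passed on withdrawal, 23 with compound 6, 12 with compound 2 and 0 with compound 9. The shares above are those of the fit without the block. Apart from compound 9, member counts under the block, here and below, have no share of all genes beside them. They are therefore not read as particular to the members. Compound 9 had 252 genes at an unadjusted p under 0.05, of which Abcb1b was the only member, and 1 gene of any kind passed with the block.

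**Figure D1:**
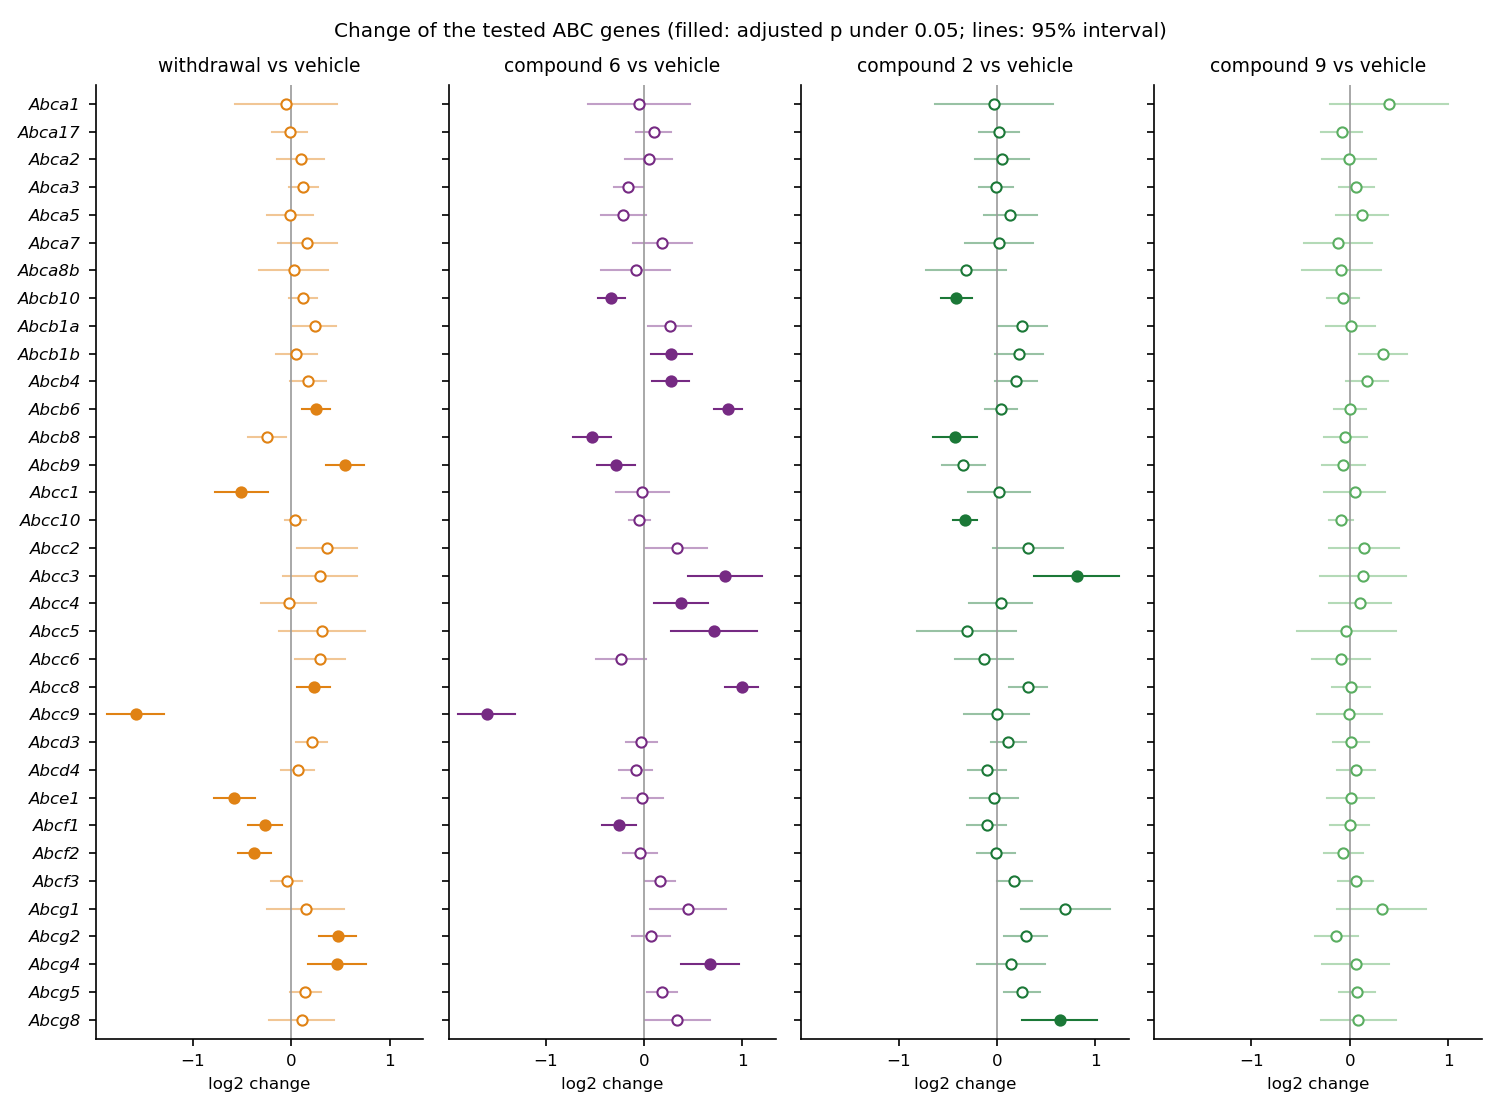
Change of 34 of the tested ABC genes (rows) in log2 units against vehicle arrays of the same letters, with 95% intervals; filled points have a limma adjusted p under 0.05. Abcc9 lies farthest to the left on withdrawal and with compound 6, where the treated arrays were not above background, and Abcc8 farthest to the right with compound 6 (0.99), and no point is filled for compound 9.

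Vehicle arrays of the letter sets A to C and D to G differed widely before any treatment. In 24 of the 36 members the vehicle arrays of the sets did not overlap, 13 higher and 11 lower in D to G, while 49.4% of all genes had no overlap. Set, slide and scan cannot be told apart, so each treatment was compared with vehicles of its own letters. Compounds 2 and 9 therefore share vehicles A to C, and compound 6 and withdrawal share vehicles D to G. Epithelial markers were well above background (7 of 7, with 8 of 8 enterocyte markers), and so, on at least 3 arrays, were 5 of 6 fibroblast markers (Col1a1, Col1a2, Col3a1, Dcn and Vim, but Pdgfra on no array), 2 of 4 endothelial markers (Pecam1 and Kdr, but Cdh5 on no array) and 7 of 8 leukocyte markers. With compound 6, 5 of 7 detected leukocyte markers and 3 of 5 fibroblast markers also rose. Their mean level went from -1.74 to -1.63 in vehicles D to G to -1.38 to -1.35 for leukocytes, and from -6.60 to -6.46 to -6.39 to -6.12 for fibroblasts; their part in the member changes was not tested. In bulk RNA, fewer cells of a type and less RNA per cell cannot be told apart.

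Abcc9 and Abcc8 are the channel regulators of the family. Abcc9 encodes SUR2, the regulatory subunit of ATP-sensitive potassium channels of muscle and vessels, and Abcc8 encodes SUR1, its counterpart in insulin- and hormone-secreting cells. Abcc9 was above background in vehicles D to G and not after withdrawal or with compound 6, and Abcc8 rose with compound 6 to about the same extent on all 4 arrays.

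Abcc9 read 2.15, 2.06, 1.42 and 2.34 on vehicle arrays D, E, F and G. On withdrawal it read 0.41, 0.50, 0.18 and 0.56, and with compound 6 it read 0.45, 0.43, 0.26 and 0.44. All 8 treated arrays lay below all 4 vehicle arrays, and none of the 8 was well above background. The group means were 1.99 ± 0.40 (SD, n = 4), 0.41 ± 0.17 (n = 4) and 0.39 ± 0.09 (n = 4). As the treated arrays give only a bound, the sample-channel signal was at least 2.54-fold lower in each (limma adjusted p = 2.85e-06 and 3.14e-07). The gene entered the test through vehicles D to G, which hold 4 of its 5 arrays above background, so a difference from them was built into its choice and these p-values are no support for it. The bound sets the mean signal of the vehicle arrays against the lowest signal above background on the treated arrays or the probe's own, whichever was higher. On vehicle arrays A to C the same probe read 0.28, 0.20 and 0.41, was well above background on 1 of the 3 arrays, and lay at the level of the treated arrays. With compound 2 it read 0.28, 0.39 and 0.20 and with compound 9 it read 0.29, 0.29 and 0.30, so in that set there was no measured level from which it could fall. Without a term for the letter set the compound 6 and withdrawal calls were lost (-0.87, adjusted p = 0.079, and -0.85, adjusted p = 0.12), and the deposited series matrix gave -4.42 with compound 6 at an adjusted p of 0.073. Intestinal stem cell genes fell in the same comparisons, 7 of 7 on withdrawal and 6 of 7 with compound 6, with median changes of -1.80 and -1.13. Of the 7, Olfm4 was well above background on only 3 arrays and had its highest mean in vehicles D to G (0.72). A fall of Olfm4 may therefore be built into its choice, as for Abcc9. The mean level of the 7 genes ran from 0.90 to 2.33 in vehicles D to G and -0.13 to 0.10 on withdrawal. It was 0.21 to 0.82 with compound 6 and 1.22 to 1.34 in vehicles A to C. The part of these genes in the Abcc9 result was not tested.

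Abcc8 read 0.60, 0.68, 0.71 and 0.70 on vehicles D to G and 1.44, 1.61, 1.78 and 1.85 with compound 6. No compound 6 array overlapped a vehicle array, and the change was 0.99 ± 0.08 (adjusted p = 1.57e-07), a ratio 1.99-fold higher. The other probe of Abcc8 gave 0.89 ± 0.09 (adjusted p = 2.87e-06). On withdrawal it read 0.98, 0.86, 0.93 and 0.84, a rise of 0.23 ± 0.08 (adjusted p = 0.048) that was lost in 6 of 11 alternative settings and in 14 of 21 fits that left out an array. Compound 2 arrays read 0.19, 0.02 and 0.26 against -0.15, -0.16 and -0.18 on vehicles A to C, without overlap, and the change of 0.32 (adjusted p = 0.052) passed with the letter block (adjusted p = 0.021). Compound 9 read -0.05, -0.16 and -0.24, around its vehicles. Of 7 enteroendocrine markers, 3 rose with compound 6, namely Gcg (1.93 ± 0.41), Pyy (0.80 ± 0.16) and Neurod1 (0.65 ± 0.11), and none passed in the other vehicle comparisons. The mean level of the 7 markers was 3.86 to 4.12 in vehicles D to G and 4.48 to 4.67 with compound 6, beside 1.33 to 1.86 in vehicles A to C; its part in the Abcc8 result was not tested.

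**Figure D2:**
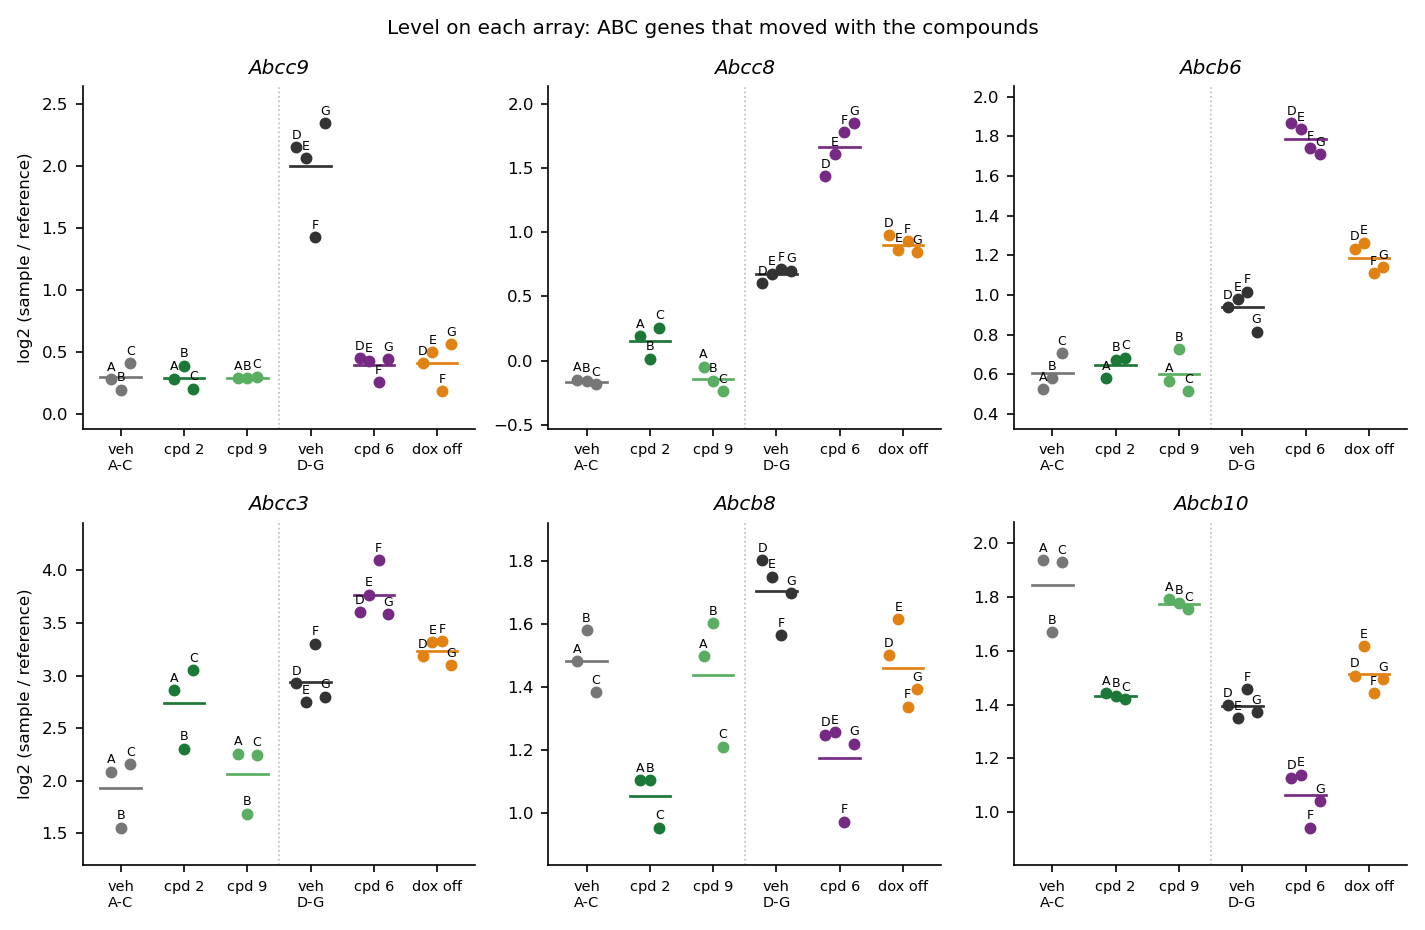
Level of 6 ABC genes on each array as log2 sample over reference; points carry the array letter, horizontal lines are group means (n = 3 in A to C, n = 4 in D to G), and the dotted line parts the letter sets. Abcc9 stands at 1.42 to 2.34 in vehicles D to G and at 0.56 or lower everywhere else, and Abcb6 is at 1.71 or higher on the compound 6 arrays only.

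The ABCB members that work inside the cell split with compound 6: Abcb6 rose, while Abcb8, Abcb10 and Abcb9 fell. Abcb6 moves porphyrins and is found in the outer mitochondrial membrane and in lysosomes, Abcb8 and Abcb10 sit in the inner mitochondrial membrane, where Abcb10 supports haem synthesis, and Abcb9 carries peptides into lysosomes. Compound 2 lowered Abcb8 and Abcb10 but its Abcb6 arrays lay among their vehicles.

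Abcb6 read 0.94, 0.98, 1.02 and 0.82 on vehicles D to G, 1.86, 1.84, 1.74 and 1.71 with compound 6, and 1.23, 1.26, 1.11 and 1.14 on withdrawal. The groups did not overlap, and compound 6 lay above withdrawal on all letters. The change was 0.85 ± 0.07 with compound 6 (adjusted p = 1.44e-07, 1.80-fold) and 0.25 ± 0.07 on withdrawal (adjusted p = 0.014), and the compound 6 value exceeded that of withdrawal by 0.60 ± 0.07 (adjusted p = 1.1e-05). Without vehicle G the withdrawal rise was 0.21 (adjusted p = 0.058). In set A to C the vehicle arrays read 0.52, 0.58 and 0.70, compound 2 read 0.58, 0.67 and 0.68, and compound 9 read 0.57, 0.73 and 0.52. All 3 groups overlapped, with changes of 0.04 (95% interval -0.12 to 0.21) and 0.00 (-0.16 to 0.16). Within each of the 3 slides of set D to G, compound 6 exceeded vehicle by 0.80, 0.93 and 0.89.

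Abcb8 fell with both compounds that changed any member. It read 1.80, 1.75, 1.56 and 1.70 on vehicles D to G and 1.25, 1.26, 0.97 and 1.22 with compound 6, a change of -0.53 ± 0.09 (adjusted p = 0.00047). In the other set it read 1.48, 1.58 and 1.38 on vehicles and 1.10, 1.10 and 0.96 with compound 2, a change of -0.43 ± 0.11 (adjusted p = 0.023). Treated and vehicle arrays did not overlap in either set. The other detected probe of Abcb8 gave -0.39 ± 0.10 with compound 6 (adjusted p = 0.0096). With compound 2 that probe gave -0.34 ± 0.12 and did not pass (adjusted p = 0.115). The compound 2 call was lost without compound 2 array A (-0.45, adjusted p = 0.058) or C (-0.38, 0.10), or without vehicle array A (-0.43, 0.070) or B (-0.38, 0.088). Compound 9 read 1.50, 1.60 and 1.21, overlapping its vehicles. Withdrawal gave 1.50, 1.62, 1.34 and 1.39, a change of -0.24 (adjusted p = 0.069) that passed with the letter block (adjusted p = 0.0026).

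Abcb10 also fell with both compounds. Vehicles A to C read 1.94, 1.67 and 1.93, compound 2 read 1.44, 1.43 and 1.42, and compound 9 read 1.79, 1.78 and 1.76. Compound 2 lay below every other array of its set, with a change of -0.41 ± 0.08 (adjusted p = 0.0033). The call was lost without a set term (-0.16, adjusted p = 0.32) and with only the arrays compared (-0.41, 0.063). In set D to G the vehicles read 1.40, 1.35, 1.46 and 1.37, compound 6 read 1.13, 1.14, 0.94 and 1.04 and withdrawal read 1.51, 1.62, 1.44 and 1.49. Compound 6 was again below all vehicles (-0.33 ± 0.07, adjusted p = 0.0013), and it was below withdrawal by 0.45 ± 0.07 (adjusted p = 0.00014).

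Abcb9 was the member that withdrawal and compound 6 moved in opposite directions. It read 0.91, 0.94, 1.29 and 1.05 on vehicles D to G, 1.63, 1.59, 1.51 and 1.64 on withdrawal and 0.68, 0.74, 0.82 and 0.82 with compound 6. Withdrawal lay above all vehicles (0.55 ± 0.09, adjusted p = 0.00066) and compound 6 below all of them (-0.28 ± 0.09, adjusted p = 0.028). The fall with compound 6 was lost without letter F, without compound 6 array D or E, and without vehicle F or G, where it was -0.20 at the smallest, and in all in 6 of 11 alternative settings (-0.19, adjusted p = 0.29, in the Cy3 channel alone). Compound 6 against withdrawal differed by -0.83 ± 0.09 (adjusted p = 7.9e-06). In vehicles A to C, Abcb9 read 1.54, 1.32 and 1.51, above all vehicles of the other set with vehicle A within the range of its withdrawal arrays. Compound 2 read 1.15, 0.91 and 1.27, below all its vehicles, a change of -0.34 ± 0.10 (adjusted p = 0.063) that passed with the letter block (adjusted p = 0.0079).

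The multidrug and conjugate exporters held 10 tested members, of which 4 rose with compound 6, 1 rose and 1 fell with compound 2, and 1 rose and 1 fell on withdrawal. Abcc3, which passes glucuronides and bile salts across the basolateral membrane, was the member of this group with the largest rise with each of compounds 2 and 6. It read 2.93, 2.74, 3.30 and 2.80 on vehicles D to G and 3.60, 3.77, 4.10 and 3.58 with compound 6, without overlap (0.82 ± 0.18, adjusted p = 0.0027, 1.77-fold). Vehicles A to C read 2.08, 1.55 and 2.15 and compound 2 read 2.86, 2.30 and 3.05, again without overlap (0.81 ± 0.21, adjusted p = 0.028). This call was lost without compound 2 array A (0.75, adjusted p = 0.11) or C (0.65, 0.14), or without vehicle array A (0.88, 0.051) or B (0.62, 0.13). It was also lost in 4 of 11 alternative settings: without a set term (0.23, adjusted p = 0.56), with only the arrays compared (0.10), and in Agilent log ratios (0.068) and series matrix values (0.055). Compound 9 read 2.26, 1.69 and 2.25, overlapping its vehicles, and withdrawal read 3.18, 3.32, 3.33 and 3.1, overlapping at vehicle F. The withdrawal change of 0.29 (adjusted p = 0.27) passed with the letter block (adjusted p = 0.0057).

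Genes tied to NRF2, the transcription factor of the oxidative stress response, also rose with compounds 2 and 6, as Abcc3 did. Some rose on withdrawal too, where Abcc3 passed only with the letter block. Nfe2l2 and Keap1 are counted among them. Of 10 such genes 8 rose with compound 6 (median change 0.92), 6 with compound 2 (0.39), 4 on withdrawal (0.23) and 0 with compound 9 (0.08). Gclc, which makes the rate-limiting enzyme of glutathione synthesis, rose by 2.94 ± 0.17 with compound 6, 1.03 ± 0.19 with compound 2 and 1.24 ± 0.17 on withdrawal, and Nqo1, a quinone reductase, by 1.03 ± 0.15, 0.69 ± 0.17 and 0.53 ± 0.15 in that order. The mean level of the list was 0.89 to 1.28 in vehicles D to G and 1.85 to 2.17 with compound 6; its part in the changes of Abcc3 was not tested. Among 8 genes of the xenobiotic and bile acid receptors PXR, CAR and FXR, Cyp3a11 rose with compounds 2 (0.95 ± 0.26) and 6 (1.26 ± 0.22), and Nr1h4, the gene of FXR itself, rose on withdrawal (0.37 ± 0.10) and with compound 6 (0.45 ± 0.10).

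Abcc2, the apical exporter of the same conjugates, read 5.08, 4.83, 5.47 and 5.21 on vehicles D to G, 5.41, 5.45, 5.82 and 5.22 with compound 6 and 5.37, 5.57, 5.59 and 5.51 on withdrawal. The ranges overlapped, and the changes of 0.33 and 0.37 (adjusted p = 0.11 and 0.084) passed with the letter block (adjusted p = 0.048 and 0.032). On vehicles A to C it read 5.64, 5.72 and 5.83, with compound 2 6.03, 6.10 and 5.99 and with compound 9 6.26, 5.84 and 5.51. Compound 2 lay above its vehicles but did not pass (0.31 ± 0.17, adjusted p = 0.36), nor with the block. Abcc4, an exporter of cyclic nucleotides and drugs, read -2.45, -2.41, -2.24 and -2.32 on vehicles D to G and -2.06, -2.19, -1.60 and -2.06 with compound 6. The groups did not overlap, and the rise of 0.38 ± 0.13 (adjusted p = 0.043) was lost in 6 of 11 alternative settings and in 10 of 21 fits without an array.

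Abcc1, the basolateral exporter of glutathione conjugates, fell on withdrawal. Vehicles D to G read -1.40, -1.46, -1.94 and -1.63, and withdrawal read -2.08, -2.04, -2.25 and -2.06. Every withdrawal array lay below every vehicle array, with a change of -0.50 ± 0.13 (adjusted p = 0.0099). With compound 6 it read -1.54, -1.69, -1.88 and -1.40, among its vehicles (-0.02, 95% interval -0.29 to 0.25), and compound 6 exceeded withdrawal by 0.48 ± 0.13 (adjusted p = 0.015). On vehicles A to C it read -2.46, -2.79 and -2.19, lower than any array of D to G vehicles and near the withdrawal arrays, and compounds 2 and 9 changed it by 0.02 and 0.05.

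Abcg2, the apical breast cancer resistance protein, which exports drugs and urate, rose on withdrawal. It read 2.26, 2.34, 2.68 and 2.26 on vehicles D to G and 2.85, 2.82, 2.96 and 2.81 on withdrawal, without overlap (0.47 ± 0.09, adjusted p = 0.0017). With compound 6 it read 2.41, 2.44, 2.62 and 2.35, within the vehicle range. On vehicles A to C it read 3.34, 3.18 and 3.15, with compound 2 3.58, 3.38 and 3.58 and with compound 9 3.14, 3.12 and 2.99. Compound 2 lay above its vehicles and compound 9 below them. Neither passed against vehicle (0.29, adjusted p = 0.12, and -0.14, adjusted p = 1), but the rise with compound 2 passed with the letter block (adjusted p = 0.011), and compound 9 was below compound 2 by 0.43 ± 0.10 (adjusted p = 0.021).

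The P-glycoprotein genes moved little. Abcb1a, the gut form, read 4.65, 4.49, 4.80 and 4.84 on vehicles D to G, 4.92, 4.68, 5.32 and 4.91 with compound 6 and 4.92, 4.89, 4.93 and 4.99 on withdrawal. The changes of 0.26 and 0.24 (adjusted p = 0.072 and 0.11) passed with the letter block (adjusted p = 0.015 and 0.026). Vehicles A to C read 5.11, 5.04 and 5.02, compound 2 read 5.40, 5.28 and 5.25 and compound 9 read 5.09, 5.16 and 4.93; compound 2 lay above its vehicles and its change of 0.26 did not pass. Abcb1b read -0.29, -0.50, -0.21 and -0.27 on vehicles D to G and -0.10, -0.12, 0.22 and -0.15 with compound 6, without overlap and with compound 6 array F highest. The rise of 0.28 ± 0.10 (adjusted p = 0.048) was lost in 5 of 11 alternative settings and in 13 of 21 fits without an array. With compound 9 it read 0.36, 0.59 and 0.28 against 0.04, 0.24 and -0.05 on its vehicles, a change of 0.34 (95% interval 0.10 to 0.58) that did not pass over all genes (adjusted p = 1). Compound 2 gave 0.39, 0.34 and 0.17 (0.22, adjusted p = 0.32), which passed with the block (adjusted p = 0.044).

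Abcc5 and Abcc10 complete the changes of this group. The brightest of 4 Abcc5 probes read -0.90, -0.89, 0.06 and -0.82 on vehicles D to G and -0.20, -0.10, 0.65 and -0.07 with compound 6, the arrays of letter F standing high in both groups, so that the ranges overlapped. Its change was 0.71 ± 0.21 (adjusted p = 0.018), while the other 3 probes gave -0.04, 0.13 and 0.12 and none passed. The call was lost without compound 6 array F (0.52, adjusted p = 0.077) and without vehicle D (0.62, 0.062), E (0.62, 0.065) or G (0.65, 0.059). Abcc10, an exporter of conjugates and drugs, fell with compound 2: it read 1.36, 1.42 and 1.42 on vehicles and 1.09, 1.06 and 1.08 with compound 2, a change of -0.32 ± 0.06 (adjusted p = 0.0029). It was lost in the Cy3 channel alone (-0.29, adjusted p = 0.14) and with only the arrays compared (-0.32, 0.053). Compound 9, at 1.38, 1.22 and 1.31, lay above compound 2 by 0.23 ± 0.06 (adjusted p = 0.027).

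Ribosome-associated members fell on withdrawal: 3 of the 4, with a median of -0.32. Abce1 recycles ribosomes after termination, Abcf1 takes part in initiation, and Abcf2 and Abcf3 are their less studied relatives. Abce1 read -0.66, -0.59, -1.10 and -0.59 on vehicles D to G and -1.22, -1.27, -1.44 and -1.32 on withdrawal. Withdrawal lay below all vehicles, of which F was lowest (-0.58 ± 0.10, adjusted p = 0.00091, 1.49-fold). With compound 6 it read -0.65, -0.75, -0.96 and -0.65, among the vehicles (-0.02), and 0.56 ± 0.10 above withdrawal (adjusted p = 0.00091). Abcf2 read -0.27, -0.11, -0.45 and -0.13 on vehicles and -0.70, -0.62, -0.54 and -0.59 on withdrawal (-0.37 ± 0.08, adjusted p = 0.0041), and -0.18, -0.36, -0.46 and -0.14 with compound 6. Here too only withdrawal parted from the vehicles. Abcf1 changed by -0.26 on withdrawal (adjusted p = 0.028) and -0.25 with compound 6 (adjusted p = 0.030) by its brightest probe, but its other probe gave 0.01 and 0.04, and both calls were lost without vehicle D, E or G, the withdrawal call in 5 and the compound 6 call in 6 of 11 alternative settings, the withdrawal call also without withdrawal D, E or G and the compound 6 call without compound 6 E or F. Abcf3 changed by -0.05 on withdrawal.

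In the other letter set Abce1 stood at -1.26, -1.17 and -1.27 on vehicles A to C and Abcf2 at -0.61, -0.59 and -0.58. These are the levels of the withdrawal arrays of set D to G, and compounds 2 and 9 stayed there (-1.32 to -1.15 for Abce1). No member of this group passed with compound 2 or 9. Abcc1, Abce1, Abcf2 and Abcb9 each moved on withdrawal from a vehicle level in D to G that vehicles A to C did not have. The same held for Abcg2, Abcb6, Abcc8, Abcc9 and Abcf1. It is not particular to these members, since the vehicle sets did not overlap in 24 of 36 members and 49.4% of all genes. Without a set term, which lets all 7 vehicle arrays serve as the control, Abcc9, Abcc1, Abce1, Abcf1, Abcf2 and Abcg2 did not pass on withdrawal.

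**Figure D3:**
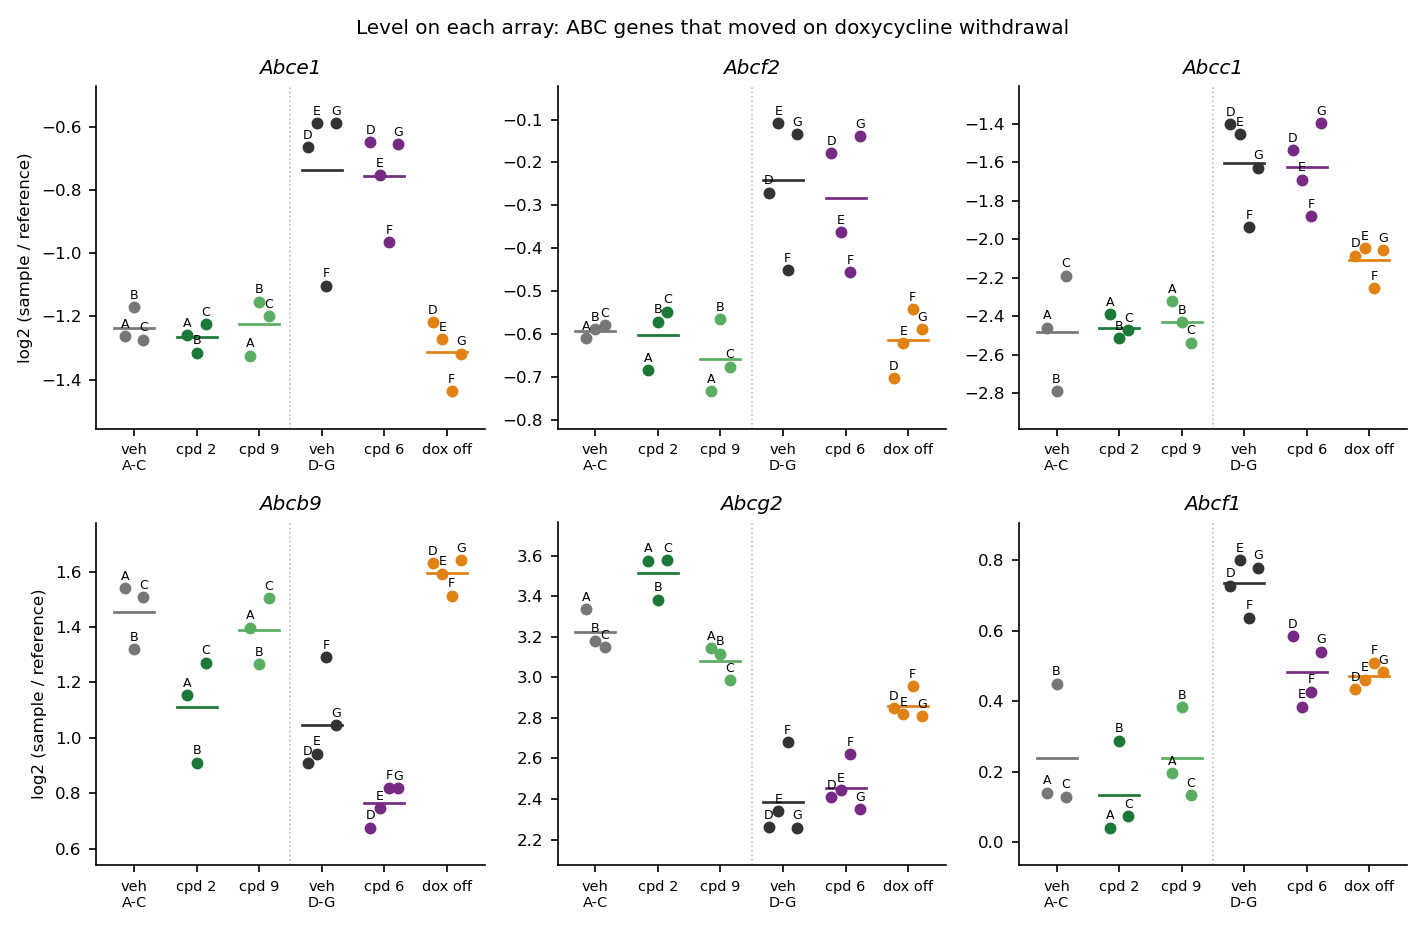
Level of 6 ABC genes on each array as log2 sample over reference, drawn as points with the array letter and group means as lines (n = 3 in A to C, n = 4 in D to G). For Abce1 the vehicles D to G read -1.10 to -0.59, the withdrawal arrays -1.44 to -1.22 and the vehicles A to C -1.27 to -1.17.

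The sterol, phospholipid and bile salt exporters had 7 tested members, with 1 rising on withdrawal, 2 with compound 6, 1 with compound 2 and 0 with compound 9. Abcg8 read 4.28, 4.47 and 4.42 on vehicles A to C, 5.01, 5.20 and 4.87 with compound 2 and 4.79, 4.73 and 3.91 with compound 9. Compound 2 lay above its vehicles, and compound 9 array C fell below them. The rise with compound 2 was 0.64 ± 0.18 (adjusted p = 0.047); it sat at the threshold, being lost without any of the compound 2 arrays or vehicles A to C (0.55 to 0.72, adjusted p 0.070 to 0.16) and in 15 of 21 such fits in all. Its partner Abcg5, which shares the promoter stretch printed above, read 6.01, 6.38 and 6.36 on vehicles A to C and 6.51, 6.49 and 6.52 with compound 2. The compound 2 arrays were above the vehicles, and the change of 0.26 (adjusted p = 0.097) passed with the letter block (adjusted p = 0.033). With compound 6, Abcg5 read 6.63, 6.72, 6.80 and 6.61 over vehicles at 6.53, 6.47, 6.53 and 6.51, and Abcg8 read 3.80, 3.71, 3.80 and 3.83 over 3.13, 3.30, 3.68 and 3.69. Neither group overlapped its vehicles, and the changes of 0.18 and 0.34 (adjusted p = 0.082 and 0.13) passed with the block (adjusted p = 0.040 and 0.042). On withdrawal Abcg5 read 6.68, 6.68, 6.58 and 6.68, also above all its vehicles, a change of 0.14. Abcg8 overlapped its vehicles on withdrawal and changed by 0.11. Neither withdrawal change passed.

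Abca1 and Abcg1 load cholesterol onto lipoproteins and are classic targets of the sterol receptor LXR. Abcg1 read -1.63, -0.77 and -1.44 on vehicles A to C, -1.02, -0.11 and -0.63 with compound 2 and -1.25, -0.59 and -1.02 with compound 9. The compound 2 arrays were higher on each letter but the ranges overlapped, and the change of 0.69 ± 0.22 (adjusted p = 0.068) passed with the block (adjusted p = 0.00029). In set D to G it read -2.57, -2.74, -2.81 and -2.87 on vehicles and -2.49, -2.35, -2.29 and -2.06 with compound 6, without overlap (0.45, adjusted p = 0.089, and 0.00094 with the block), and -2.70, -2.58, -2.54 and -2.58 on withdrawal. Abca1 read -0.89, -2.10 and -1.88 on vehicles A to C, -1.06, -2.00 and -1.90 with compound 2 and -0.69, -1.58 and -1.42 with compound 9, letter A standing high in each. On vehicles D to G it read -1.84, -1.66, -2.22 and -1.98. Its changes were -0.05 on withdrawal, -0.06 with compound 6, -0.03 with compound 2 and 0.40 with compound 9, none of which passed. Of 11 LXR and sterol genes 4 rose with compound 6 (Apoa1, Mttp, Mylip and Npc1l1, by 0.25 to 0.34) and 3 on withdrawal, and with compound 2 Nr1h3, the gene of LXR alpha, fell by 0.31 ± 0.09.

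Abcb4, which flips phosphatidylcholine, rose by 0.27 ± 0.09 with compound 6 (adjusted p = 0.031), a call lost without a set term (0.19, adjusted p = 0.14), with only the arrays compared, without letter F and without compound 6 array E or F or vehicle D or E. Abcg4 read -0.16, -0.49, 0.12 and -0.36 on vehicles D to G, 0.48, 0.44, 0.75 and 0.11 with compound 6 and 0.28, -0.03, 0.45 and 0.27 on withdrawal. The arrays were higher on each letter, with overlap between groups, and the changes were 0.67 ± 0.14 (adjusted p = 0.0021) and 0.46 ± 0.14 (adjusted p = 0.025). The withdrawal call was lost without withdrawal D, F or G or vehicle E or G. Its other 2 probes gave 0.12 and -0.05 with compound 6 and -0.04 and 0.14 on withdrawal, and the brightest probe carries the name Abcg4 only in the later of 2 annotation releases in the files. Abca7, counted with the sterol exporters, passed in no vehicle comparison, and its largest change was 0.19 with compound 6. Among Abca2, Abca3, Abca5, Abca8b and Abca17 none passed in any vehicle comparison either, and their changes ran from -0.32 to 0.14. With the letter block Abca3 (-0.16, adjusted p = 0.026) and Abca5 (-0.21, adjusted p = 0.033) passed with compound 6.

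**Figure D4:**
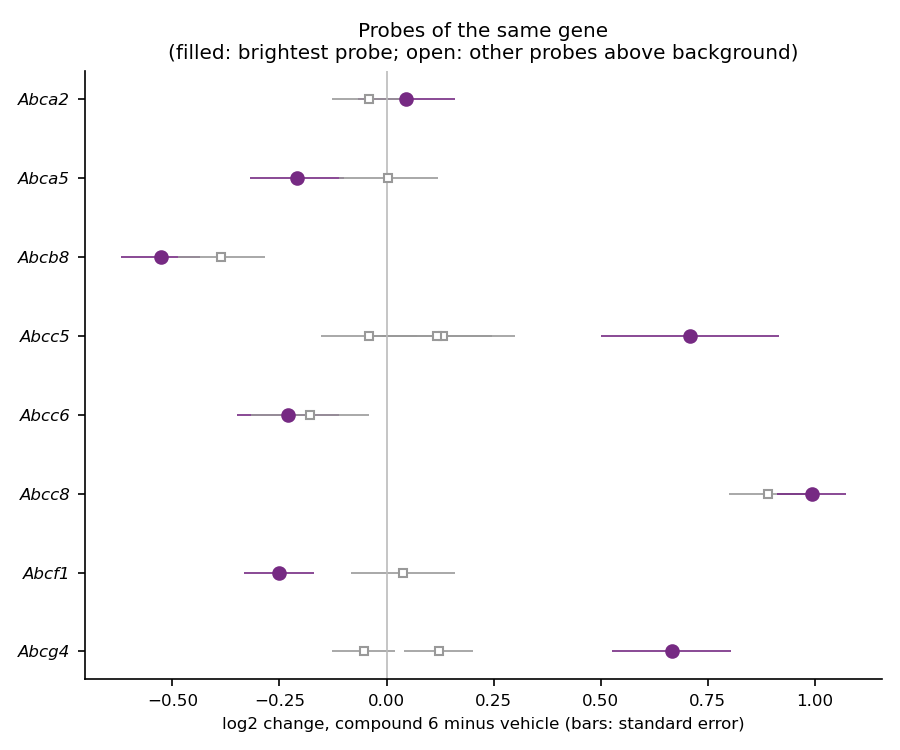
Change with compound 6 in log2 units, with its standard error, for the detected probes of 8 ABC genes that have several (19 probes). The probes of Abcc8 and Abcb8 lie together, while the brightest probes of Abcc5 (0.71) and Abcg4 (0.67) stand apart from the others of the same gene.

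ABC genes outside the naming rule moved little. Of Tap1 and Tap2, the peptide transporters of antigen presentation, and Cftr, the chloride channel, Tap2 fell with compound 6 (-0.37 ± 0.13, adjusted p = 0.047) and no other change passed. Of the ileal bile acid genes Slc10a2, Fabp6 and Fgf15, none passed in any vehicle comparison.

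The compounds were compared with each other in 3 pairs, at the same dose and time. Compound 9 against compound 2, which share slides and letters, differed in 4 of 36 members where 4.81% of all genes differed; the letter block gave 10. Compound 9 was higher for Abcb8 (0.38 ± 0.11, adjusted p = 0.044), Abcb10 (0.34 ± 0.08, 0.012) and Abcc10 (0.23 ± 0.06, 0.027) and lower for Abcg2. For Abcc3 the difference of -0.67 (95% interval -1.11 to -0.24, adjusted p = 0.070) passed with the block (adjusted p = 9.5e-05). Leaving out compound 2 array A or C left 1 member called, and leaving out compound 9 array A or C left 2.

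Compound 6 against compound 2, each against its own vehicles, differed in 3 members (0.566% of all genes; 6 with the block). These were Abcb6 (0.81 ± 0.10, adjusted p = 0.0014), Abcc8 (0.68 ± 0.12, adjusted p = 0.014) and Abcc9. Abcc9 was above background with neither compound, so its call comes from the vehicles alone and says nothing of the compounds. For Abcc3, Abcb8 and Abcb10 no difference passed: it was 0.01 for Abcc3 (95% interval -0.56 to 0.59), -0.10 for Abcb8 (-0.40 to 0.19) and 0.08 for Abcb10 (-0.13 to 0.29). With the letter block Abcc5 (1.02, adjusted p = 0.14, and 0.00026 with the block), Abcc10 (0.28, 0.10 and 0.035) and Abcg4 (0.52, 0.27 and 0.029) also passed. Without vehicle F the count was 5. Compound 6 against compound 9 differed in 4 members (6.55% of all genes; 11 with the block), namely Abcb6 (0.85 ± 0.10, adjusted p = 0.00015), Abcc8 (0.98 ± 0.12, 0.00018), Abcb8 (-0.48 ± 0.14, 0.046) and, again through the vehicles alone, Abcc9, and without vehicle F in 9. The letters of compound 6 do not occur with the other compounds, so these 2 comparisons also cross slides and scans.

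Compound 6 and withdrawal, measured on the same letters, differed in 14 members, where 15% of all genes differed. Compound 6 was higher for 6, with Abcc8 (0.76 ± 0.08), Abcb6 and Abce1 leading, and lower for 8, with Abcb9, Abcc6 (-0.52 ± 0.12, adjusted p = 0.0063) and Abcb10 leading. Abcc9 did not differ beyond the error, being below measurable level in both.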

How the data were processed

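Each array carried sample RNA in Cy3 and Universal Mouse Reference RNA in Cy5. Spot intensities were deposited as scanner output of Agilent Feature Extraction 10.7.3.1, per the file headers, and their log10 ratios are red over green. The deposited series matrix holds the authors' processed log2 values, whose scale and centring are not given in the sources used here. From the mean and background intensities, limma 3.58.1 in R 4.3.3 ran normexp (offset 50) and loess, and log2 sample over reference was taken. Control spots (3671 of 62976) and 157 non-uniform spots were left out, and 0 were saturated. Between 42.6% and 51.9% of probes per array stood well above background, and the number of arrays limits the precision. Probes well above background on at least 3 arrays were kept, and the brightest stood for its gene. One limma model held 6 cells (each treatment, and vehicles of each letter set), with Benjamini-Hochberg adjustment over 21372 genes and a threshold of 0.05. The model was run on simulated arrays for compound 6 against vehicle only. Their noise was drawn separately for each array, so the simulation held no pairing by letter and cannot speak to it.

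Gene names came from the annotation in the files of letters A to C, since 2930 spots are named differently in the others. The letters were taken to pair the samples: same-letter arrays deviated together in all 21 pairs (correlation 0.21 to 0.749, median 0.53). The results of some members and markers, though counted, are not reported here. Members and lists were chosen with earlier results of these data known. Array values were given for members that passed with a log2 change of at least 0.5 and for 11 exporters of drugs, conjugates and sterols; Abcb10, Abcc10 and Abcf2 were added after their values were seen. Alternatives changed the background correction, normalization, channel, probe choice, filter, set term, blocks and arrays.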

Additional observations from a re-analysis of the deposited data

Results flagged for a closer look

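In 9 of 76 groups of arrays (4 or 7 arrays each, over 19 ABC genes) the highest or lowest array stood apart from its neighbours. It lay farther off than Dixon's 95% limit allows. That limit flags about 1 in 20 groups when they are independent and each comes from a single normal population. Here the groups share arrays, and all 7 vehicles span letter sets that differ. The 9 of 76 therefore cannot be set against that rate. Letter F gave 7 of the 9. Groups examined were all 7 vehicles together, vehicles D to G, compound 6 and withdrawal. Compound 2, compound 9 and vehicles A to C were not examined as groups. Arrays of letters A to C could therefore be flagged only among all vehicles. On compound 6 array F, Abcb1b (0.22) and Abcc5 (0.65) stood high, and Abcb8 (0.97) and Abcc9 (0.26) low. On vehicle array F, Abcc5 stood high (0.06) and Abce1 low (-1.10) among vehicles D to G. On withdrawal array F, Abcg5 was low (6.58). The remaining 2 were on vehicle array A among all 7 vehicles, where Abca1 was high (-0.89) and Abcg5 low (6.01). The cause was not tested.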

How the results depend on the processing

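No call against vehicle changed direction under the alternatives run. Direction was not examined for the calls between compounds or between compound 6 and withdrawal. The counts that follow are of members only, without the share of all genes called under the same setting. A higher or lower count is therefore not read as particular to the members. Leaving out the set term, so that all vehicles served as control, gave 5 members called on withdrawal (11 as reported), 11 with compound 2 (5), 0 for compound 9 against compound 2 (4), 21 for compound 6 against compound 2 (3), 19 against compound 9 (4) and 6 against withdrawal (14). The letter as a replicate block, which pairs the samples, gave 18 on withdrawal, 12 with compound 2, 23 with compound 6, 10 for compound 9 against compound 2, 6 for compound 6 against compound 2 and 11 against compound 9, and it ended no call. Fitting only the arrays compared gave 2 with compound 2, 8 with compound 6 and 1 for compound 9 against compound 2. The series matrix gave 3 with compound 2, 1 for compound 6 against compound 2 and 2 against compound 9, and Agilent's own log ratios gave 1 and 2 for the latter pair. Without letter F the counts were 8 with compound 2 and 7 for compound 6 against compound 9.

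With each array left out in turn, counts ran from 8 to 15 on withdrawal, 2 to 8 with compound 2, 9 to 16 with compound 6, 0 to 0 with compound 9, 1 to 5 for compound 9 against compound 2, 2 to 5 for compound 6 against compound 2, 3 to 9 against compound 9 and 10 to 16 against withdrawal. The compound 2 count was lowest without compound 2 array C or vehicle A and highest without vehicle F. The split of higher to lower calls also moved with scaling: Agilent's log ratios gave 9 to 4 on withdrawal and 1 to 3 with compound 2, the series matrix 9 to 3, 0 to 3 and, with compound 6, 11 to 3, and the Cy3 channel alone 9 to 5 on withdrawal and 12 to 4 with compound 6.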
